A study of Homo sapiens with 12 samples.

Results

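Long non-coding RNAs linked to senescence were followed through oncogene-induced senescence (OIS) and the knockdown of XPO7 in IMR90 ER:RAS cells. The set was MIR31HG, MIR22HG, MIR100HG, NEAT1, MALAT1, H19, MEG3, CDKN2B-AS1, GAS5 and PVT1, taken by gene symbol as 10 of the 62069 genes in the deposited count table. All 10 had a row in the table. A total of 9 passed the filter on low counts and were among the 15284 genes tested, and H19 did not.

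IMR90 ER:RAS cells are human lung fibroblasts that carry a fusion of the RAS oncogene with the oestrogen receptor. The drug 4-hydroxytamoxifen (4OHT, 100 nM) switches the fusion on, and the cells then enter OIS. RNA was sequenced from 12 libraries in 4 groups of 3, which the labels place at day 5. The vector group was not induced, and vector/4OHT was induced with no XPO7 knockdown. The shXPO7_3/4OHT and shXPO7_5/4OHT groups were induced and carried 1 of 2 short hairpin RNAs (shRNAs) against XPO7, a nuclear transport receptor. All 4 groups carry the ER:RAS fusion, and the libraries are named by the letters T, A, B or C in the labels. Separate cultures are not named in the labels for the libraries of a group. A p-value here is therefore set against library-to-library spread that could be technical alone.

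The libraries held 28534141 to 60397769 counts. Levels are in CPM (counts-per-million of the library, after normalization between libraries). XPO7 had 137 ± 8.81 CPM (SD, n = 3) in vector/4OHT, 27.7 ± 1.14 in shXPO7_3/4OHT and 52.2 ± 1.62 in shXPO7_5/4OHT. MKI67, a proliferation gene, went from 270 ± 17.3 CPM in vector to 27.5 ± 2.52 in vector/4OHT, and IL1B, a cytokine of the senescence secretome, from 0.257 ± 0.12 to 137 ± 0.927. All 8 fibroblast marker genes were tested, at a summed 37700 to 53200 CPM per library. Of these 8, 5 were lower in OIS, beside 26.1% of all genes tested. The largest fall was that of DCN, from 987 ± 53.1 CPM in vector to 95.6 ± 2.74 in vector/4OHT. PDGFRB was higher with shXPO7_5. The 8 markers of other cell types summed to 0.809 to 2.25 CPM per library, and those of endothelium, PECAM1 and CDH5, were at 0 in all libraries. Of these markers only EPCAM (0.912 ± 0.174 CPM in vector, 0.497 ± 0.123 in vector/4OHT) and MYH11 (0.584 ± 0.218 and 0.211 ± 0.115 CPM) passed the filter, and both were lower in OIS. MYH11, with 27, 18 and 17 counts in vector, passed only through that group, so its fall was in part set by the filter.

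Long non-coding RNAs act as RNA and give no protein. Some hold nuclear bodies together, some guide chromatin regulators to nearby genes, and others are long precursors from whose introns or exons small RNAs are cut. NEAT1 is the scaffold of paraspeckles, and MALAT1 is an abundant RNA of nuclear speckles. MIR31HG, MIR22HG and MIR100HG are hosts of microRNAs, and GAS5 is the host of small nucleolar RNAs (snoRNAs). H19 and MEG3 are imprinted RNAs made from the maternal allele. CDKN2B-AS1, also called ANRIL, runs antisense to CDKN2B beside CDKN2A, the genes of the cell cycle inhibitors p15 and p16, and MIR31HG lies in the same chromosome arm. PVT1 is a neighbour of MYC.

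The host transcripts matter for what is cut from them. For the hosts that passed the filter, 1 mature microRNA of each microRNA gene looked up is given here in the direction 5′ to 3′. The seed (bases 2 to 8, which pair with targets) is in capitals, and the other mature sequences of these genes are not printed. The sequences are those of RefSeq on GRCh38.p14, which held all 7 of the hosted microRNA genes that were looked up.
miR-31-5p: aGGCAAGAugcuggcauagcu
miR-22-3p: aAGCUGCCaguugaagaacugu
miR-100-5p: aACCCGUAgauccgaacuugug
let-7a-5p: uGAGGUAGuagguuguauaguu
miR-125b-5p: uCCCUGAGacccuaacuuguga
miR-770-5p: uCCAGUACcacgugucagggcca
miR-31-5p comes from MIR31HG, miR-22-3p from MIR22HG, and miR-770-5p from MEG3. miR-100-5p, let-7a-5p and miR-125b-5p come from MIR100HG. The 12 mature sequences of the 7 genes had 12 different seeds. The counts describe the host transcripts and not these small RNAs, since a library of poly(A) RNA holds few of them. Of the 7 microRNA genes, 5 had a row in the count table and 0 passed the filter.

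The promoters of the 2 RNAs that rose in OIS and of MEG3, an imprinted RNA that fell, are shown for the motifs they hold. Each window is 300 bases, from 250 before to 50 after the start of the gene in RefSeq on GRCh38.p14, on the strand of the gene. Capitals mark matches on either strand to the AP-1 motif TGANTCA, the cyclic AMP response element TGACGTCA, the E-box CAGNTG or the NF-kB consensus.
MIR31HG, chr9:21559749-21560048, minus strand: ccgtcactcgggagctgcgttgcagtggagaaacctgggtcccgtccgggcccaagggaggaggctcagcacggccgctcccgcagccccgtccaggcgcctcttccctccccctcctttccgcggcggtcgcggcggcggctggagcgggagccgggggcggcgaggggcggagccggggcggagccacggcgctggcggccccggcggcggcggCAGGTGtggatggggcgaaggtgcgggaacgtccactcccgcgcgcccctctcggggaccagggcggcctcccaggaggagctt
MIR22HG, chr17:1716161-1716460, minus strand: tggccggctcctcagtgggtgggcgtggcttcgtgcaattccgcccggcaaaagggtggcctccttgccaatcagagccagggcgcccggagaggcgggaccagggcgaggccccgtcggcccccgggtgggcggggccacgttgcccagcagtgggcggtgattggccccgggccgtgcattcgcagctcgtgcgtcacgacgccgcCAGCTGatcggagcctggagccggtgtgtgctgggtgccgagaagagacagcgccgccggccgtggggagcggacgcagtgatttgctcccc
MEG3, chr14:100825868-100826167, plus strand: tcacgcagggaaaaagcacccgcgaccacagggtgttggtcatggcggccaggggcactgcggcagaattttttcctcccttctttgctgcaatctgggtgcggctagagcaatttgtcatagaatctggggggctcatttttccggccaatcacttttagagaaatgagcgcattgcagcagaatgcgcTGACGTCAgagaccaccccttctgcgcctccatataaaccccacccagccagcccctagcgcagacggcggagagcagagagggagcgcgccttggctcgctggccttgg
The capitals are an E-box in MIR31HG and in MIR22HG and a cyclic AMP response element in MEG3, which also stood in the other 2 RefSeq windows of MEG3 that overlap this one. An E-box was found in 49.9% of the 35116 windows of this length that were searched, and the cyclic AMP response element in 1.85%. The windows searched included 16 for 8 of the 10 RNAs and none for NEAT1 and PVT1. The AP-1 motif, in 7.71% of the windows searched, was in 0 of these 16. The NF-kB consensus, in 5.91% of the windows searched, was in 1 of the 16, a window of MIR100HG. The MIR31HG window was 77.7% G and C and held 39 CpG dinucleotides, the MIR22HG window 72.3% and 32, and the MEG3 window 58.3% and 17. These matches are a description of the letters.

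Whether these RNAs differ between growing cells and cells in OIS was asked by comparing vector/4OHT with vector. MIR31HG and MIR22HG rose, NEAT1, MIR100HG and MEG3 fell, and MALAT1, GAS5, PVT1 and CDKN2B-AS1 did not pass the test. The test was the quasi-likelihood test of edgeR over all 15284 genes, with a gene called where the p-value adjusted by Benjamini-Hochberg was under 0.05. The share called over all genes was 50.9% (24.8% higher in OIS, 26.1% lower), and 5 of 9 is near that share. With upper-quartile normalization 38.3% of the called genes were higher, against 48.8% here, and the 5 RNAs kept their directions. In a bulk sample, fewer cells that make an RNA and less of it per cell cannot be told apart. The median log2 fold change was -0.16 over the 9 RNAs and -0.0068 over all genes. The 5 called RNAs were also those whose libraries did not overlap between the groups, against 63.2% of all genes.

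**Figure D1:**
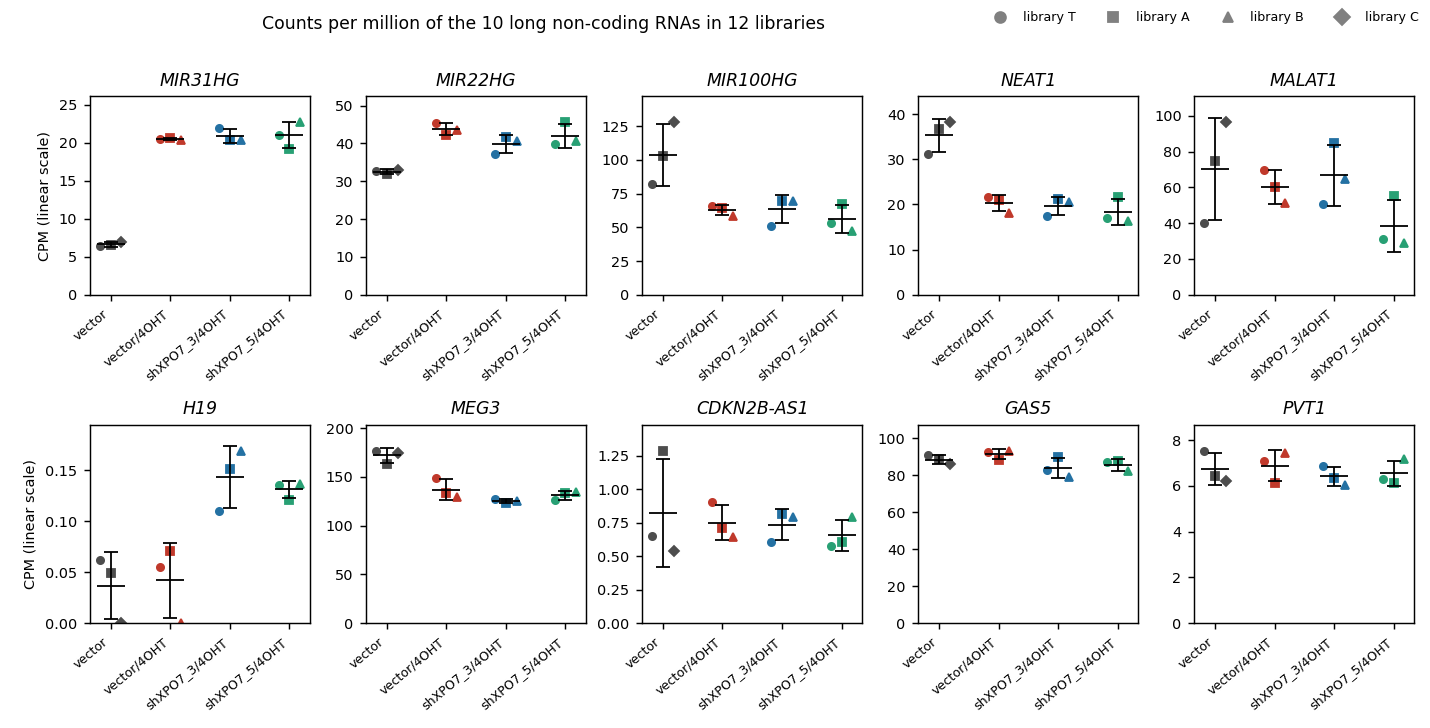
Level of each of the 10 long non-coding RNAs as CPM (vertical axes, linear, from 0, a scale of its own in each panel) in the 4 groups; points are libraries, with shapes for the letters T, A, B and C, and lines are the mean and SD of 3 libraries. MIR31HG stands at 6.4 to 6.91 CPM in vector and at 19.2 or above in every induced library, while the points of MALAT1 are spread from 28.9 to 96.4 CPM.

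MIR31HG, a transcript known to bring Polycomb repressors to the gene of p16, showed the largest change among the 9. It had 6.4, 6.53 and 6.91 CPM in the vector libraries T, A and C, and 20.5, 20.6 and 20.3 CPM in the vector/4OHT libraries T, A and B. The lowest induced library lay far above the highest vector library. The difference was 3.09-fold, a log2 fold change of 1.63 with SE 0.0826 and an adjusted p of 8.56e-09 by edgeR. It was called under all 16 alternative settings that give it a value, at log2 fold changes of 1.53 to 1.77. The counts behind these values were 207 to 269 per library in vector and 581 to 1007 in vector/4OHT.

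MIR31HG (ENSG00000171889) lies on the minus strand at chr9:21455642-21559669 of GRCh38, with 745 exonic bases in GENCODE 29. Of these, 303 are shared with the interferon pseudogene IFNWP19 on the opposite strand. IFNWP19 had 0 to 7 counts per library, and 8 counts in all in vector against 9 in vector/4OHT. The exons of IFNE and of MIR31 lie in introns of MIR31HG and share none of its exonic bases. The strand setting of the counting is not given in the sources used here. Reads of the shared bases therefore cannot be assigned with certainty.

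MIR22HG, a stress-responsive transcript, rose by less. Its vector libraries had 32.8, 31.8 and 33 CPM and its vector/4OHT libraries 45.3, 42.1 and 43.5 CPM, with no overlap. This was 1.34-fold, a log2 fold change of 0.42 with SE 0.0746 and an adjusted p of 0.000459 by edgeR. MIR22HG (ENSG00000186594, chr17:1711493-1717174, minus strand) overlaps 652 bases of WDR81 on the opposite strand, none of them exonic in both. WDR81 itself had a log2 fold change of -0.18 and an adjusted p of 0.248, and TLCD2, which starts 1.05 kb away, fell by 0.96 on the log2 scale from 0.837 ± 0.135 CPM (adjusted p of 0.0176).

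NEAT1 (ENSG00000245532, chr11:65422774-65445540, plus strand) and MIR100HG fell by similar amounts. NEAT1 had 31.1, 36.7 and 38.2 CPM in vector and 21.6, 21 and 18.2 CPM in vector/4OHT. Every induced library lay below every vector library. The fold was 0.573, a log2 fold change of -0.80 with SE 0.126 and an adjusted p of 0.000196 by edgeR. NEAT1 has a short form with a poly(A) tail that lies within a long form without one, and a gene count from poly(A) RNA does not tell them apart.

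MIR100HG (ENSG00000255248, chr11:122028327-122556721, minus strand) had 82.1, 103 and 128 CPM in vector and 65.8, 64 and 58.7 CPM in vector/4OHT. The vector libraries differed widely among themselves but all lay above the induced ones. The log2 fold change was -0.73 with SE 0.173 and an adjusted p of 0.00367 by edgeR. Its 3 microRNA genes lie in introns and share no exonic base with it. Each of MIR31, MIR100, MIRLET7A2 and MIR125B1 had at most 1 count in any library.

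MEG3 (ENSG00000214548, chr14:100779410-100861031, plus strand), known as a growth-restraining RNA, had the highest CPM of the set. It had 177, 163 and 175 CPM in vector and 149, 133 and 129 CPM in vector/4OHT, with no overlap, a fold of 0.797. In log2 terms the change was -0.33 with SE 0.0674 and an adjusted p of 0.00147 by edgeR. An offset for the GC content and length of genes in each library ended this call, at a log2 fold change of -0.14 and an adjusted p of 0.0934 (adjusted p 0.000205 to 0.319 over the 16 alternatives). Exons of MIR493HG share 108 bases with it on the same strand, at 49 to 134 counts per library against 3745 to 7398 for MEG3.

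MALAT1 (ENSG00000251562, chr11:65497688-65506516, plus strand) varied more between libraries of a group than between these groups. Its vector libraries had 40, 74.5 and 96.4 CPM, and its vector/4OHT libraries 69.9, 60 and 51.1 CPM. All induced libraries lay inside the range of the vector libraries. The log2 fold change was -0.22 with a 95% interval from -0.90 to 0.46 and an adjusted p of 0.58, which spans changes of either sign. MALAT1 ends in a triple helix and not in a regular poly(A) tail, so poly(A) selection captures it in part. AP000769.2 shares 396 exonic bases with it on the opposite strand.

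GAS5 (ENSG00000234741, chr1:173863900-173868882, minus strand), a snoRNA host named for its build-up in growth-arrested cells, had close values in all libraries. It had 90.8, 88.9 and 86 CPM in vector and 92.7, 88.3 and 93.4 CPM in vector/4OHT, and the groups overlapped. On the log2 scale the difference was 0.047 with a 95% interval from -0.097 to 0.19 (adjusted p of 0.579). GAS5-AS1 on the opposite strand shares 42 exonic bases with it. PVT1 (ENSG00000249859, chr8:127794533-128101253, plus strand) had 7.54, 6.44 and 6.23 CPM in vector and 7.08, 6.13 and 7.42 CPM in vector/4OHT. Its log2 fold change was 0.036 with a 95% interval from -0.21 to 0.28 (adjusted p of 0.806). MYC, 53.1 kb away, had 49.7 ± 3.25 CPM in vector and 55.7 ± 1.92 in vector/4OHT and was not called.

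CDKN2B-AS1 (ENSG00000240498, chr9:21994778-22121097, plus strand) had low counts, at 19 to 53 in the vector libraries and 20 to 33 in the vector/4OHT libraries. This was 0.649, 1.29 and 0.538 CPM in vector and 0.902, 0.709 and 0.646 CPM in vector/4OHT. Vector library A stood above the other 2 of its group, and the groups overlapped. The log2 fold change was -0.16 with a 95% interval from -0.83 to 0.51 (adjusted p of 0.688). Without vector library A, which had 53 counts, it was 0.33 with an adjusted p of 0.344 (0.174 to 0.91 over the 15 alternatives that give it a value). It shares 341 exonic bases with CDKN2A on the opposite strand and 6461 bases of its span with CDKN2B, none exonic in both.

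H19 (ENSG00000130600, chr11:1995176-2001470, minus strand), an imprinted fetal growth RNA, was near 0. It had 2, 2 and 0 counts in vector, 2, 2 and 0 in vector/4OHT, 4, 5 and 10 in shXPO7_3/4OHT and 4, 4 and 5 in shXPO7_5/4OHT. The summed counts were 4, 4, 19 and 13, or 0.0368, 0.035, 0.147 and 0.131 CPM. The exact 95% Poisson intervals of these sums, which cover counting error only, were 0.01 to 0.0941 CPM in vector, 0.00953 to 0.0895 in vector/4OHT, 0.0887 to 0.23 in shXPO7_3/4OHT and 0.0696 to 0.224 in shXPO7_5/4OHT. All 6 knockdown libraries, at 0.11 to 0.169 CPM, lay above all vector/4OHT libraries, at 0 to 0.0709 CPM. Of the genes tested, which leave H19 out, 14.6% with shXPO7_3 and 26.8% with shXPO7_5 did not overlap vector/4OHT. With the filter lifted, edgeR gave H19 a log2 fold change of 1.89 for shXPO7_3 (adjusted p of 0.994) and 1.75 for shXPO7_5 (0.351), values that depend on the prior count at such counts, and an adjusted p of 1 in OIS. IGF2 at the same imprinted locus had 15.7 ± 0.962 CPM in vector and 30 ± 1.91 in vector/4OHT (log2 fold change 0.94, adjusted p of 2.46e-06).

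Levels between these genes can be compared only per length, as CPM per kilobase of the union of exons in GENCODE 29. In vector, GAS5 was highest at 24.4 ± 0.67, followed by MIR22HG at 10.9 ± 0.216. MIR31HG at 8.88 ± 0.36, MALAT1 at 7.96 ± 3.22 and MEG3 at 7.40 ± 0.325 came next, and the spread of MALAT1 covers both of its neighbours in this order. MIR100HG had 5.38 ± 1.19, NEAT1 1.55 ± 0.163, PVT1 1.23 ± 0.128, CDKN2B-AS1 0.103 ± 0.0504 and H19 0.0127 ± 0.0112 CPM per kilobase. In vector/4OHT, MIR31HG became the highest at 27.5 ± 0.194, ahead of GAS5 at 25.2 ± 0.767 and MIR22HG at 14.6 ± 0.527. NEAT1, at 0.891 ± 0.0804, moved below PVT1 at 1.25 ± 0.122. Long genes with many annotated exons, such as NEAT1, MEG3 and MIR100HG, get low values on this scale where only a part of the exons is used. The same holds for GAS5, with 3631 exonic bases from 29 annotated transcripts, against 745 from 1 transcript for MIR31HG. In CPM, GAS5 stood above MIR31HG in vector/4OHT, at 91.4 ± 2.78 against 20.5 ± 0.145. The order of these 2 RNAs therefore rests on the annotated lengths.

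**Figure D2:**
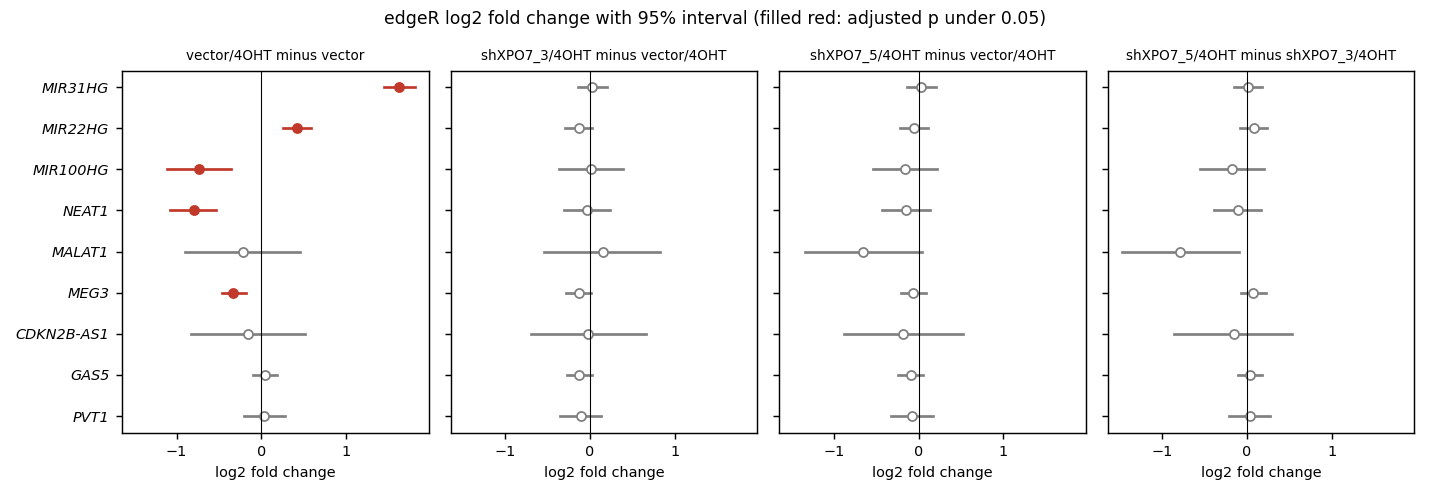
Log2 fold change from edgeR (horizontal axes) of the 9 RNAs tested in each of 4 comparisons; lines are 95% intervals, and filled red points have an adjusted p under 0.05. The only filled points are the 5 in OIS, and the interval of MALAT1 is wide in every panel.

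The genes next to these RNAs were taken from a list of 23, of which 18 were tested. In OIS, 9 of the 18 were higher, 3 were lower and 6 did not pass, with a median log2 fold change of 0.29, beside 24.8% higher and 26.1% lower over all genes. On the short arm of chromosome 9, 4 of 4 tested neighbours were higher, as MIR31HG was, beside 24.8% of all genes. Of these 4, IFNE had 7, 10 and 26 counts in vector and passed the filter on low counts only through the induced groups. Its rise was therefore in part set by the filter. CDKN2B went from 14.1 ± 1.03 to 315 ± 5.72 CPM (log2 fold change 4.48, adjusted p of 1.6e-11). CDKN2A went from 26 ± 2.67 to 51.2 ± 1.89 CPM (0.98, 9.66e-06), and MTAP, an enzyme of methionine salvage, from 42.6 ± 2.88 to 100 ± 2.27 CPM (1.23, 8.33e-07). IFNE, an interferon gene inside MIR31HG, went from 0.399 ± 0.293 to 1.96 ± 0.37 CPM (2.28, 0.000572). CDKN2B-AS1, which lies 435 kb from MIR31HG and overlaps the span of CDKN2B, was the member of this group of genes that was not called.

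At the other loci the RNA and its neighbours did not all go one way. Around NEAT1 and MALAT1, which are 52.1 kb apart, FRMD8 rose by a log2 fold change of 0.70 (adjusted p of 0.000149), while NEAT1 fell. UBASH3B, 99 kb from MIR100HG, rose from 116 ± 2.94 to 213 ± 0.995 CPM (0.87, 1.68e-07). DLK1, the paternally expressed growth factor gene 41.2 kb from MEG3, had 7 counts in each vector library and 12 to 32 in vector/4OHT (1.51, 0.00299), and the maternal transcripts MEG8 and MEG9 had log2 fold changes of 0.23 and 0.10 and were not called.

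**Figure D3:**
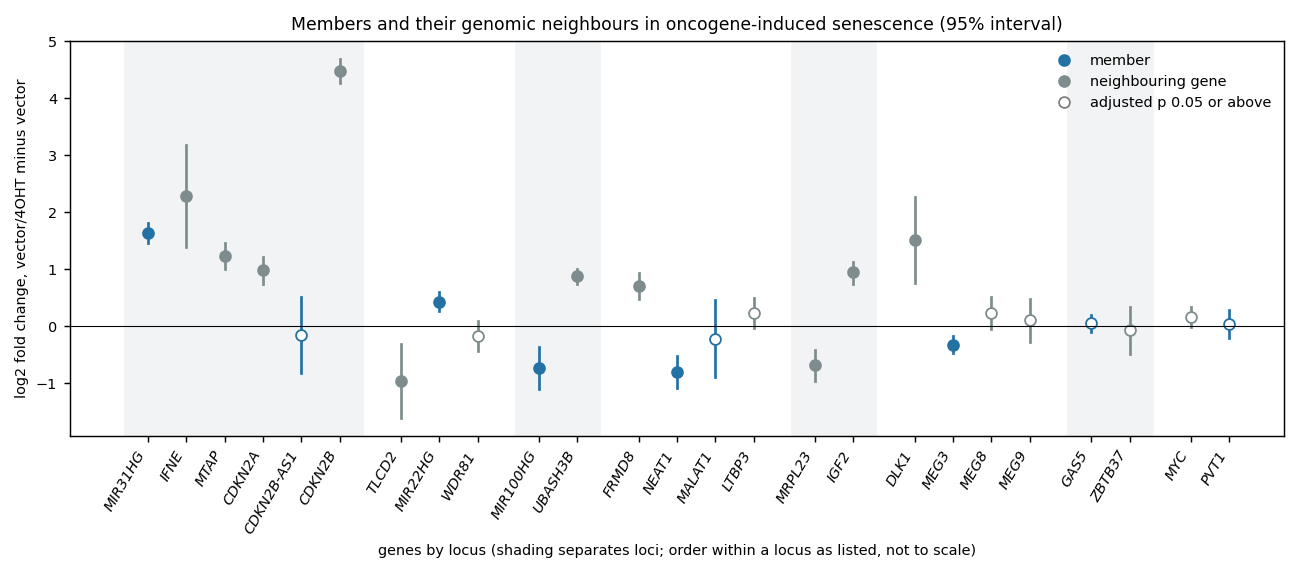
Log2 fold change in OIS (vertical axis, vector/4OHT minus vector) of the RNAs (blue) and neighbours of theirs (grey) by locus, with 95% intervals; open points have an adjusted p of 0.05 or above, and H19 is missing since it was not tested. The locus at the left holds MIR31HG at 1.63, CDKN2B at 4.48 and CDKN2B-AS1 at -0.16.

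Other transcripts of the same classes were counted from lists. Of 14 tested snoRNA hosts, a class that includes GAS5, 3 were higher in OIS and 4 were lower (24.8% and 26.1% over all genes), with a median log2 fold change of -0.005. The largest changes were in SNHG16 at a log2 fold change of 0.90 (adjusted p of 5.11e-07), SNHG9 at 0.75 (0.000982) and SNHG12 at 0.67 (6.79e-05). Of 14 other microRNA hosts tested, 5 were higher and 4 lower, with a median of 0.0059. MIR3142HG, the host of miR-146a, had 0, 0 and 1 counts in vector and 43, 23 and 56 in vector/4OHT (adjusted p of 1.78e-06), a ratio of summed CPM of 116 with an exact 95% interval from 20.5 to 4620 for counting error only. MIR34AHG, the host of the p53 target miR-34a, had 2, 7 and 5 counts in vector and 21, 22 and 35 in vector/4OHT. Its log2 fold change was 2.39 (adjusted p of 0.00105 by edgeR). MIR3142HG and MIR34AHG passed the filter on low counts only through the induced groups, where they are high. Their rise was therefore in part set by the filter. DLEU2, the host of miR-15a and miR-16, had a log2 fold change of -2.32 (0.000381).

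Of 13 other named long non-coding RNAs tested, 3 were higher and 0 lower in OIS, beside 24.8% and 26.1% of all genes. They were LUCAT1 at a log2 fold change of 3.02 (adjusted p of 3.32e-07), LINC-PINT at 0.79 (0.000605) and DANCR at 0.79 (8.01e-06). LUCAT1, with 8, 9 and 10 counts in vector, passed the filter only through the induced groups, so its rise was in part set by the filter. For the proteins of the paraspeckle, the body built on NEAT1, 12 genes were tested, of which 1 was higher, 5 were lower and 6 were not called, with a median log2 fold change of -0.09. FAM98A changed by 0.94 (adjusted p of 4e-06) and RBM14 by -0.75 (2.66e-05). In the knockdown comparisons, 0 genes of these 4 lists were called, against 0.124% of all genes with shXPO7_3 and 0.589% with shXPO7_5. The lowest adjusted p of the 4 lists was that of CARMN, a microRNA host, with each shRNA. Its log2 fold change against vector/4OHT was 1.14 with shXPO7_3 (adjusted p of 0.0752 by edgeR). With shXPO7_5 it was 1.09, at an adjusted p of 0.05, which lay at the threshold and was not called.

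The effect of losing XPO7 on these RNAs in induced cells was asked by comparing each shRNA group with vector/4OHT. The 2 comparisons share the vector/4OHT libraries. No member passed the test in either. With shXPO7_3, 0 of 9 were called by edgeR, against 0.124% of all genes, and 0 of 9 had an unadjusted p under 0.05, against 6.41% of all genes. With shXPO7_5, 0 of 9 were called, against 0.589% of all genes, and 0 of 9 had an unadjusted p under 0.05, against 21.6% of all genes. DESeq2 and limma-voom called 0 of 9 in both comparisons as well. With so few genes called, 0 of 9 is near the background of calls.

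MIR31HG differed from vector/4OHT by less than the spread of its libraries in each knockdown group. It had 22, 20.3 and 20.3 CPM in shXPO7_3/4OHT and 21, 19.2 and 22.7 CPM in shXPO7_5/4OHT, and both groups overlapped vector/4OHT. The log2 fold change against vector/4OHT was 0.028 for shXPO7_3 with a 95% interval from -0.14 to 0.20. For shXPO7_5 it was 0.035 with an interval from -0.14 to 0.21. These intervals are narrow beside its OIS change of 1.63.

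MIR22HG had 37.2, 41.6 and 40.7 CPM in shXPO7_3/4OHT and 39.9, 45.6 and 40.6 CPM in shXPO7_5/4OHT. The first group lay below all vector/4OHT libraries and the other overlapped them. Its log2 fold changes were -0.13 (95% interval -0.29 to 0.029) and -0.055 (-0.22 to 0.11). MEG3 had 127, 123 and 125 CPM in shXPO7_3/4OHT, also below every vector/4OHT library, and 126, 133 and 135 CPM in shXPO7_5/4OHT. Its log2 fold changes were -0.13 (-0.28 to 0.015) and -0.062 (-0.21 to 0.085). GAS5 had 82.7, 89.8 and 79.2 CPM in shXPO7_3/4OHT and 87.3, 87.7 and 82.1 CPM in shXPO7_5/4OHT, the latter below all vector/4OHT libraries. Its log2 fold changes were -0.13 (-0.27 to 0.019) and -0.093 (-0.24 to 0.051).

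Thus 2 of 9 with shXPO7_3 and 1 of 9 with shXPO7_5 did not overlap vector/4OHT, all of them lower, where 14.6% and 26.8% of all genes did not overlap. NEAT1 had 17.5, 21.3 and 20.5 CPM in shXPO7_3/4OHT and 17, 21.6 and 16.3 CPM in shXPO7_5/4OHT, and each group overlapped vector/4OHT. Its log2 fold changes were -0.036 (95% interval -0.31 to 0.24) and -0.15 (-0.43 to 0.13). MIR100HG had 51.2, 69.8 and 69.4 CPM and 53.5, 67.6 and 47.4 CPM in these groups, again with overlap. Its log2 fold changes were 0.016 (-0.36 to 0.39) and -0.16 (-0.54 to 0.22). The value with shXPO7_5 turned to 0.16 with the GC and length offset (adjusted p of 0.103) and was called at 0.16 with a replicate block added (0.0484, with 0.0484 to 0.922 over the 16 alternatives).

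PVT1 had 6.86, 6.34 and 6.05 CPM in shXPO7_3/4OHT and 6.3, 6.13 and 7.18 CPM in shXPO7_5/4OHT, and CDKN2B-AS1 had 0.573 to 0.815 CPM in the 6 knockdown libraries. Their log2 fold changes ran from -0.18 to -0.018, with no call. Of the 18 tested neighbours, 0 were called in either knockdown, against 0.124% of all genes with shXPO7_3 and 0.589% with shXPO7_5. Those that did not overlap vector/4OHT were 3 with shXPO7_3 and 8 with shXPO7_5 (5 higher, 3 lower), against 14.6% and 26.8% of all genes. CDKN2B, among the 3 lower, had 297 ± 22.9 CPM in shXPO7_3/4OHT and 264 ± 26.6 in shXPO7_5/4OHT. CDKN2A, among the 5 higher, had 53.9 ± 2.97 and 66.3 ± 9.5 CPM in these groups.

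MALAT1 had the largest difference of the 9 tested RNAs with shXPO7_5 and wide intervals in both comparisons. It had 50.6, 84.9 and 64.7 CPM in shXPO7_3/4OHT and 31.3, 55.2 and 28.9 CPM in shXPO7_5/4OHT. Libraries T and B of shXPO7_5/4OHT were the 2 lowest of all 12, and library A lay inside the vector/4OHT range. The log2 fold change was 0.15 for shXPO7_3 (95% interval -0.54 to 0.83) and -0.65 for shXPO7_5 (-1.34 to 0.042, adjusted p of 0.245 by edgeR). Without library A of shXPO7_5/4OHT it was -1 with an adjusted p of 0.0437, the lowest of 16 alternatives, which reached up to 0.648. That omission also raised the number of genes called with shXPO7_5 from 90 to 3634.

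The 2 shRNAs were compared directly as shXPO7_5/4OHT minus shXPO7_3/4OHT. XPO7 itself was 1.89-fold higher with shXPO7_5 (adjusted p of 0.000387). Of the 9 RNAs, 0 were called and 0 did not overlap, against 0.0131% and 9.71% of all genes. MALAT1 was the 1 of 9 with an unadjusted p under 0.05, where 11.9% of all genes had one, at a log2 fold change of -0.79 (95% interval -1.48 to -0.10) and an adjusted p of 0.388. For the other 8 the log2 fold change lay between -0.18 and 0.078. The widest interval of these 8 was that of CDKN2B-AS1, from -0.86 to 0.53.

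The libraries of a group also differed in how the levels of genes followed their GC content. Of the 9 RNAs, 4 were at the same extreme, lowest or highest, in every group in the library where that trend was highest. MIR31HG and MEG3 were also at an extreme there, but not the same one in each group. With 3 libraries per group only the middle rank is not an extreme, so this is a description. The share of all genes at the same extreme in this way was not counted. For each library, the GC trend was taken as Spearman's rho across genes between GC content and the deviation from the mean of its own group. Genes are not independent replicates, so it is a description. It ran from -0.71 in library A of shXPO7_5/4OHT to 0.73 in library B of that group. In vector it was 0.59, -0.13 and -0.64 in T, A and C, and in vector/4OHT -0.18, -0.21 and 0.32 in T, A and B. In shXPO7_3/4OHT it was 0.67, -0.59 and -0.47.

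GC content was taken over the pooled bases of all annotated transcripts of a gene. MALAT1, MIR100HG and NEAT1, at 39.6%, 40.4% and 45.5% G and C, were each lowest in the library with the highest GC trend in 4 of 4 groups. MALAT1 deviated from its group mean by -0.72 (log2) in vector T and 0.55 in vector C, and by 0.58 in shXPO7_5/4OHT A and -0.35 in B. CDKN2B-AS1 and GAS5, at 42.7% and 43.5%, did not follow these 3, and were lowest in that library in 2 and in 1 of the 4 groups. PVT1, at 51.1%, was highest in that library in 4 of 4 groups, by 0.10 to 0.17. MIR31HG, at 56.9%, stayed within 0.12 of its group mean in every library. The fold changes of all genes had a Spearman's rho with GC content of -0.13 in OIS, 0.11 with shXPO7_3, 0.69 with shXPO7_5 and 0.72 between the shRNAs. With the GC and length offset, the log2 fold change of MALAT1 with shXPO7_5 was -0.33, against -0.65 without it, and the adjusted p was 0.291 (0.0437 to 0.648 over the 16 alternatives). The part of the GC trend in the values of MALAT1, MIR100HG and NEAT1 was not tested.

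**Figure D4:**
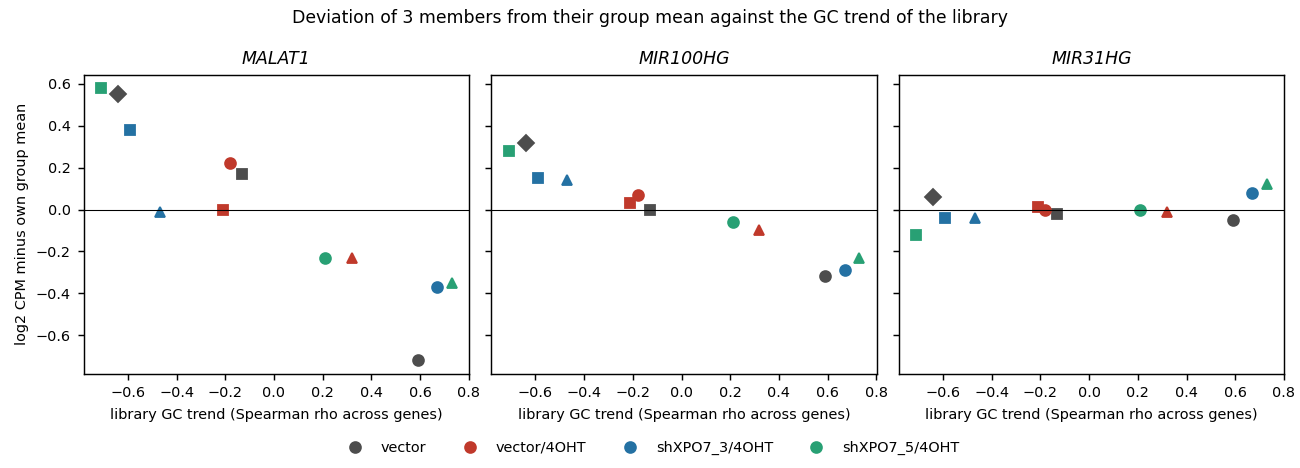
Deviation of MALAT1, MIR100HG and MIR31HG from the mean of their own group (vertical axis, log2 CPM) against the GC trend of the library (horizontal axis, Spearman's rho across genes); each point is 1 of 12 libraries, coloured by group, with shapes for the letters T, A, B and C. MALAT1 runs from 0.58 at a trend of -0.71 to -0.72 at 0.59, while MIR31HG stays within 0.12 of 0.

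Genes whose log2 CPM over the 12 libraries was among the most like that of each RNA were found by Pearson's r among 10535 candidates (10536 for CDKN2B-AS1). The libraries fall in 4 groups and share the GC trend, so r is a description of both. For MIR31HG they were GDF15, CHST2 and GFPT2, each at 0.998. For MIR22HG they were CLDN1 (0.959) and CD55 (0.947), and for MEG3 ABLIM1 (0.964), PPARA (0.963) and LRIG1 (0.956). For NEAT1 they were MYBL1 (0.994), TMEM47 (0.994) and PHLDB2 (0.993), for MIR100HG PSIP1 (0.992) and NEXN (0.992), and for MALAT1 VPS13C (0.974) and ZNF91 (0.971). For GAS5 they were SNHG5 (0.757), TEX2 (0.752) and TMLHE (0.747), for PVT1 HINT2 (0.851), WDR59 (0.832) and SVIL-AS1 (0.798), and for CDKN2B-AS1 LIAS (0.625), AGK (0.612) and PDE6D (0.612). SNHG5 is itself a host of snoRNAs.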

How the data were processed

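Total RNA of IMR90 ER:RAS cells was made into stranded mRNA libraries. The authors deposited whole-number counts per gene for 12 libraries, unnormalized, and list hg19, with featureCounts 1.18.0, TopHat2 2.0.11 and CASAVA 1.8.4, in the processing notes. Which annotation and strand setting were used, and how reads matching several genes were handled, is not given in the sources used here.

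Group names (vector, vector/4OHT) follow the study. The 62069 genes were matched by Ensembl identifier to symbols (49517 matched), and lengths, GC content and positions came from GENCODE 29 on GRCh38, a newer build than that of the counts. The 92 spike-in rows held 0 counts and were left out. Counts were tested in R 4.3.3 with edgeR 4.0.16 (TMM factors, filterByExpr by group, glmQLFit and glmQLFTest with all 12 libraries and no covariate), with p-values adjusted by Benjamini-Hochberg over all 15284 genes tested and a threshold of 0.05. CPM values use the TMM library sizes, and log2 CPM a prior count of 2. An exact permutation test of 3 libraries against 3 cannot give a p below 0.1, so none was used.

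The alternatives were other size factors, other filters, a replicate block, an offset for GC content and length, DESeq2 1.42.0, limma-voom (limma 3.58.1), a fit of the 2 groups alone, a minimum absolute log2 fold change of 1, and leaving out each library. The scripts were tested on simulated data. The RNAs, the gene lists (fibroblast and other cell type markers, neighbours, hosted microRNA genes, snoRNA hosts, other microRNA hosts, other long non-coding RNAs, paraspeckle proteins, senescence genes) and the tests were chosen with earlier results of these data known. Named were the RNAs, their neighbours, up to 3 called genes of each other list with the largest change in OIS and any called in a knockdown, and the 3 genes most like each RNA among those with a mean log2 CPM of at least 2. A few genes that this rule names are not reported here.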

Additional observations from a re-analysis of the deposited data

How the results depend on the processing

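The OIS calls of MIR31HG, MIR22HG, NEAT1 and MIR100HG held, with the same sign, in all 16 alternatives that gave them a value. MEG3 lost its call with the GC and length offset and, at a log2 fold change of -0.08 and an adjusted p of 0.319, with that offset and the replicate block. At a log2 fold change of at least 1, 1 of the RNAs was called in OIS (MIR31HG), and 2573 genes, 2 with shXPO7_3, 8 with shXPO7_5 and 0 between the shRNAs. The number of genes called with shXPO7_3, which was 19, became 8 with upper-quartile factors, 30 with no filter beyond 1 count, 382 with the GC and length offset, 82 by DESeq2, 2 from the 2 groups alone and 1 without any 1 library of these groups. With shXPO7_5, 90 became 217 with no filter, 503 with the offset, 433 by DESeq2, 10 from the 2 groups alone and 2 to 3634 without 1 library. Without vector/4OHT T or A or shXPO7_5/4OHT T it was 2, without vector/4OHT B 14 and without shXPO7_5/4OHT B 7. Without shXPO7_5/4OHT A 1 of the RNAs, MALAT1, was called, and the count of RNAs ran from 0 to 1. Between the shRNAs, 2 became 20, 32, 27 and 0 in the same order of the 4 settings, and 1 to 4 without 1 library. The causes were not tested.

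The letters of the libraries were not shown to pair them: 8 of 15 pairs with the same letter had deviations with a correlation over 0.1 (-0.23 to 0.59), and 6 of 12 libraries correlated best with their own letter. With the letter as a replicate block, 149 genes were called with shXPO7_5, and with the block and the offset together 482 with shXPO7_3, 1040 with shXPO7_5 and 69 between the shRNAs. That last fit called 1 of the RNAs with shXPO7_5, MIR100HG, at 0.16 and an adjusted p of 0.0484 (0.0484 to 0.922 over its 16 alternatives), with the opposite sign to that reported.

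Changes of sign arose in values near 0 that had not been called. In OIS, GAS5 became -0.051 and PVT1 -0.062 with upper-quartile factors, MALAT1 0.26 and PVT1 -0.047 with the replicate block, and GAS5 -0.016 with the block and the offset. With the GC and length offset, CDKN2B-AS1 became 0.0033 with shXPO7_3. With shXPO7_5, the offset gave MIR31HG -0.097, MIR100HG 0.16, CDKN2B-AS1 0.049 and GAS5 0.087, and with the block added -0.098, 0.16, 0.041 and 0.086. Between the shRNAs, it gave MIR31HG -0.11, MIR22HG -0.014, MIR100HG 0.14, CDKN2B-AS1 0.046 and PVT1 -0.024, and with the block added -0.11, -0.019, 0.14, 0.049 and -0.020. The fit of these 2 groups alone gave MIR31HG -0.0017. Leaving out 1 library gave ranges of -0.39 to 0.33 for CDKN2B-AS1, -0.035 to 0.12 for PVT1 and -0.50 to 0.075 for MALAT1 in OIS. With shXPO7_3 they were -0.11 to 0.038 for NEAT1, -0.14 to 0.13 for CDKN2B-AS1, -0.057 to 0.14 for MIR100HG, -0.016 to 0.047 for MIR31HG and -0.063 to 0.31 for MALAT1. With shXPO7_5 they were -0.10 to 0.0015 for MEG3 and -0.025 to 0.096 for MIR31HG, and between the shRNAs -0.049 to 0.068 for MIR31HG, -0.0046 to 0.085 for GAS5 and -0.037 to 0.088 for PVT1.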
